A study of Mus musculus with 2 samples.

Results

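The intronic chromatin described here was open, by peak calling, in CD8+ T cells cultured with tumour-associated monocytes and not in the same kind of cells cultured with vehicle. Members were selected on the measured peak calls themselves: a distinct peak of the TAMo list was kept when it shared no base pair with any vehicle peak, lay more than 1 kb from every start site of a protein-coding gene, and had its summit inside a gene body but in no exon. This gave 37990 regions, 21.2% of the 179414 distinct TAMo peaks (95% Wilson interval 20.99 to 21.4). Among the 87709 intronic TAMo peaks the members made up 43.3% (43.0 to 43.6), against 39.5% of all TAMo peaks that overlapped no vehicle peak. With the lists exchanged, 8231 of 59372 intronic vehicle peaks, or 13.9%, overlapped no TAMo peak. When the TAMo list was shortened to the strongest 127423 peaks, as many as in the vehicle list, the rule gave 17986 regions, and the shares were 29.5% TAMo-only and 24.3% vehicle-only. Because the rule is this contrast, these shares describe the choice of regions and carry no test, and all intervals given here cover counting error only.

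Open chromatin was read by ATAC-seq, where a transposase cuts and tags DNA that nucleosomes leave exposed, and the deposited values are 1 peak list per library on the mm10 build. The first group, OT-I + TAMo, was wild-type OT-I CD8+ T cells kept for 48 h with TAMos and OVA257-264 peptide. The second, OT-I + Vehicle, was the same cells and peptide for 48 h with vehicle in place of TAMos. Both were sorted as viable CD8+ T cells, about 50000 per library, with 1 library per group, so no value below has a replicate check and no p-value is given. The TAMos were CD11b+ Ly6G- Ly6C-high cells taken from the spleens, not the tumours, of animals with tumours of the LLC (Lewis lung carcinoma) line, and no group received monocytes from tumour-free mice. Both libraries therefore share antigen stimulation, and the contrast is monocytes against none. The TAMo list was the longer one, 179414 distinct intervals covering 65.6 Mb, against 127423 intervals covering 46.9 Mb in the vehicle list. Reads per library are not in the files; the background that the peak caller used was 5.804 reads per position in the TAMo library and 4.706 in the vehicle library.

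OT-I cells carry a transgenic T cell receptor for the ovalbumin peptide OVA257-264 presented on the class I molecule H-2Kb, so every cell can be activated by the same antigen. Introns hold many enhancers, stretches of DNA where transcription factors displace nucleosomes and act on promoters at a distance. In activated CD8+ T cells, factors of the AP-1, NFAT, Runx, ETS and T-box families occupy such elements, and AP-1 dimers of Fos, Jun and Batf proteins bind the palindrome-like letters TGANTCA. An open intronic peak is thus a candidate regulatory element, but an ATAC-seq peak alone shows neither which factor is bound nor which gene is acted on.

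Base sequence was at hand for the members whose summit lay inside a RefSeq window around an annotated transcription start (250 bases before to 50 after, build GRCm38.p6), since no genome sequence was used here. These were 90 of the 37990 members (0.237%). Of them, 71 lay at a start of a long non-coding RNA gene and 19 at a start of a gene that RefSeq lists as protein-coding. The protein-coding gene was the host itself in some windows, as in Ak1, and another gene in others, as Gm46058 in Ttc13. The windows are shown because their letters can be read against the summits. The following 8 windows were chosen after their values were seen: the 6 with the highest summit coverage among the 21 that held an AP-1 match, the window with the highest −log10 q of all 90, which held none, and the one member window inside Bach2. Capitals mark TGANTCA, read on either strand, and each run is printed 5′ to 3′ on the strand of the RefSeq gene:
Ak1 window, chr2:32628140-32628439, plus strand: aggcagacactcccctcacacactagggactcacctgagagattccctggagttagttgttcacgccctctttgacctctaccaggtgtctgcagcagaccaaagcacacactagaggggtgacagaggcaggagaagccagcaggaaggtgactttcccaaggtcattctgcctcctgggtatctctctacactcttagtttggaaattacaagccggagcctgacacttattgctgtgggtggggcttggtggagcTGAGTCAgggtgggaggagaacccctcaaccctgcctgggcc
C630004L07Rik window in Arhgef19, chr4:141244841-141245140, minus strand: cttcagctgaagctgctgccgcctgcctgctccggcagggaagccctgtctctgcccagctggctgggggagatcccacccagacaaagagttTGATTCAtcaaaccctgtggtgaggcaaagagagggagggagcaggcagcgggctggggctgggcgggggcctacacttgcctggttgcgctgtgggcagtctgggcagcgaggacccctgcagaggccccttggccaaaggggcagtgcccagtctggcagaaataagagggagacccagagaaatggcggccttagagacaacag
Pacsin2 window, chr15:83447831-83448130, minus strand: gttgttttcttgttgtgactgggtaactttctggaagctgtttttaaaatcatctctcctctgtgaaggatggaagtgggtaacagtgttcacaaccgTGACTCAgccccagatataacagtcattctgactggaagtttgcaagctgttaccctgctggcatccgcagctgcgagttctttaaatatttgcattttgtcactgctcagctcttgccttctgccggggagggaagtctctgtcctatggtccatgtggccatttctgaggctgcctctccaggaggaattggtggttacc
Gm52556 window in Map3k20, chr2:72351622-72351921, minus strand: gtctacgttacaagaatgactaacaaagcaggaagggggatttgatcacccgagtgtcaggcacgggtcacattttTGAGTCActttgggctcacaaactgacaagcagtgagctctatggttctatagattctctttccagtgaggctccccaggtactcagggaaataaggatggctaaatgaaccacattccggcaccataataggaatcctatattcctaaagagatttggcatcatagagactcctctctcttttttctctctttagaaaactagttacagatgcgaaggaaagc
4732465J04Rik window, chr10:95772883-95773182, plus strand: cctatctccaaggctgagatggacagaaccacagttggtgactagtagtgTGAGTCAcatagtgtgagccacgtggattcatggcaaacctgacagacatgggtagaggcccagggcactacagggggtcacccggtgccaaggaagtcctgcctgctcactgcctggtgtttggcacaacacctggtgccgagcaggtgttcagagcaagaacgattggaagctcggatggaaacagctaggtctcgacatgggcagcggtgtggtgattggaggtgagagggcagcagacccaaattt
Gm46058 window in Ttc13, chr8:124688042-124688341, minus strand: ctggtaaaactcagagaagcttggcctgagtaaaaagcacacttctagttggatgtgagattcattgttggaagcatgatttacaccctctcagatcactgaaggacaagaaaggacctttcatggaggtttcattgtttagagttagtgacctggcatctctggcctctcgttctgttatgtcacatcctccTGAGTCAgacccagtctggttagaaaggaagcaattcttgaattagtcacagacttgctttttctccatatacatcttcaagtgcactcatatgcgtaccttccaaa
AU040972 window in Nf1, chr11:79483982-79484281, minus strand: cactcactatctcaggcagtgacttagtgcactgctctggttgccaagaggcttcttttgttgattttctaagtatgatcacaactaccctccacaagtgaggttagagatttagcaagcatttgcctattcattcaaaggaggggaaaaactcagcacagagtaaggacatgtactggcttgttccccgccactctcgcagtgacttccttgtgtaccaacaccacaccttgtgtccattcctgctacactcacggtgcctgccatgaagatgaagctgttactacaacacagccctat
Bach2os window in Bach2, chr4:32571613-32571912, minus strand: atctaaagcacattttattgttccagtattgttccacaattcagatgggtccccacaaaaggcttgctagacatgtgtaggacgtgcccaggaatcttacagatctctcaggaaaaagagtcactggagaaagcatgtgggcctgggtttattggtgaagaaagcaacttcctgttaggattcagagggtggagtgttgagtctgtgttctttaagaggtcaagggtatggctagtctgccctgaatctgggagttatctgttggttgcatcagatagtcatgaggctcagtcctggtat

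In the first 6 of these windows the capitals sat close to the summit. Ak1 encodes a cytosolic adenylate kinase; the match in its window, at bases 259 to 265, was centred 0 bp from the summit, which held 168 reads. At C630004L07Rik, in an intron of the guanine nucleotide exchange factor gene Arhgef19, the match at bases 94 to 100 was 9 bp from a summit of 118 reads. The Pacsin2 window, in a gene for an endocytic membrane-bending protein, had its match at bases 99 to 105, also 9 bp from a summit of 115 reads, and the nearest vehicle peak was 3336 bp away. In Map3k20, a stress-kinase gene, the match at bases 77 to 83 was 6 bp from a summit of 85 reads, with the nearest vehicle peak 12961 bp away. The match in the 4732465J04Rik window was 7 bp from a summit of 85 reads, and the one in Ttc13 was 1 bp from a summit of 67 reads. The AU040972 window lies in Nf1, which encodes the Ras-inactivating protein neurofibromin; its summit held 275 reads and the window contained a Runx and a C/EBP match instead. The Bach2os window, with 65 reads at the summit, held an ETS and a GATA match.

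Over all 90 windows, AP-1 letters were present in 21 members (23.3%, 95% Wilson interval 15.8 to 33.1). The share was 20.2% (15.6 to 25.7) in 238 windows at intronic TAMo peaks shared with vehicle and 7.84% in all 31396 RefSeq windows on the autosomes. Of only 15 windows at vehicle-only intronic peaks, 5 held the letters (33.3%, 15.2 to 58.3). The intervals of these sets of intronic peaks overlapped, and all lay above the share of all windows. Position added to this: within 25 bp of the members' summits there were 15 matches, 3.398 per kb, and farther away in the same windows 6 matches, 0.272 per kb. At shared peaks the densities were 2.31 per kb near the summit and 0.481 per kb farther away. The median distance from the nearest AP-1 match to the summit was 14 bp in the 21 member windows and 23.5 bp in the 48 shared windows. Runx letters (TGTGGT, either strand) were found in 27.8% of member windows, 28.6% of shared windows and 16.7% of all windows, with 1.84 matches per kb within 25 bp of the members' summits and 0.945 per kb beyond. NFAT letters (TGGAAA, either strand) were found in 31.1% of member windows, 27.7% of shared windows and 21.5% of all windows, but within 25 bp of the members' summits there was 1 match, 0.231 per kb, against 1.44 per kb beyond. ETS letters (CAGGAAG) were in 18 of 90 member windows and 60 of 238 shared windows, and PU.1 letters (GAGGAAGT, which share AGGAAG with the ETS letters) in 1.11% of member windows and 4.20% of shared windows. IRF letters (GAAANNGAA) were in 16.7% of member windows (10.4 to 25.7) and 7.98% of shared windows (5.17 to 12.1), and GATA letters (AGATAA) in 18.9% of member windows (12.1 to 28.2) and 9.66% of shared windows (6.53 to 14.1); these intervals overlapped. Base composition differed too: median GC was 50.2% in member windows, 52% in shared windows and 53% in all windows. The median number of CG pairs was 3.5, 5 and 7. The part of composition in the motif shares was not tested. The windows are a small and promoter-like sample of the members, so these shares are not those of all 37990 regions.

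Members were weak peaks as a set. Summit coverage, the number of reads over the summit recovered from the deposited fold and p, had a median of 40 reads over the members (quartiles 27 and 70), against 128 reads (64 and 271) over the 49719 shared intronic TAMo peaks. The highest member reached 1107 reads and the lowest 14. Divided by the ratio of the library backgrounds, 1.23, the members' median was 32.5 reads, and vehicle-only intronic peaks had a median of 31 reads in their own library. The median −log10 q, the authors' own value, was 12.8 for members, 67.9 for shared peaks and 8.27 for vehicle-only peaks. Members were also narrower, with a median width of 214 bp against 339 bp for shared peaks, and 4.23% of them had more than 1 summit against 19.4% of shared peaks. These measures come from the calls that chose the members and are given as a description. In a population of cells, a region open in more cells and a region more open per cell cannot be told apart.

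**Figure D1:**
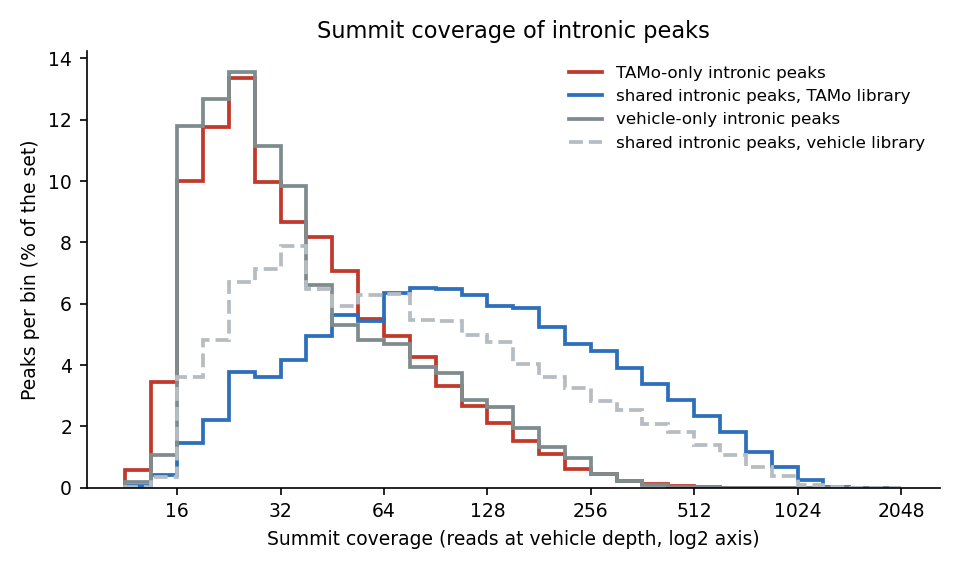
Summit coverage of intronic peaks, in reads at vehicle depth on a log2 axis, as the percent of each set per bin; lines show TAMo-only peaks, shared peaks in the TAMo library, vehicle-only peaks and shared peaks in the vehicle library. TAMo-only peaks, with a scaled median of 32.5 reads, and vehicle-only peaks, with a median of 31 reads, pile up at low coverage, and shared peaks extend to the right.

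The members' coverage can be set beside what counted as a peak in the vehicle library. After division by the background ratio, 99.4% of members exceeded 13 reads, the lowest summit coverage among vehicle peaks. Members were called peaks of at least 14 reads before division, so this share was nearly fixed in advance. The 13 reads were also the lowest at the vehicle library background, while 47.8% of members had a summit background at the TAMo library value. The share therefore does not say how many members could have been called in vehicle. Of the members, 62.8% exceeded 26 reads, the median of vehicle peaks called at the library background. Fewer, 24.4% (9273 members), exceeded 58 reads, the median of intronic vehicle peaks, and 5.89% (2237 members) exceeded 131 reads, their upper quartile. The vehicle list holds no value at the members, so no ratio between the libraries was formed there. Shared intronic regions were themselves higher in the TAMo library by a median log2 ratio of 0.38 after background scaling (quartiles -0.13 and 1.05). Dividing by that shift as well, a scaling chosen after seeing the data, left 93.9% of members above 13 reads, 48.2% above 26 reads, 16.5% above 58 reads and 3.08% above 131 reads.

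When all intronic TAMo peaks were ranked by −log10 q and divided into 10 equal bins, the TAMo-only share fell with strength. It was 81.1% in the weakest bin (median 22 reads), 51.0% in bin 5 (52 reads), 18.2% in bin 8 (142 reads) and 2.05% in the strongest bin (530 reads), where 180 of 8770 peaks were members. In the vehicle list the share found in vehicle only was 36.3% in the weakest bin and 0.0505% in the strongest, 3 of 5937 peaks.

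**Figure D2:**
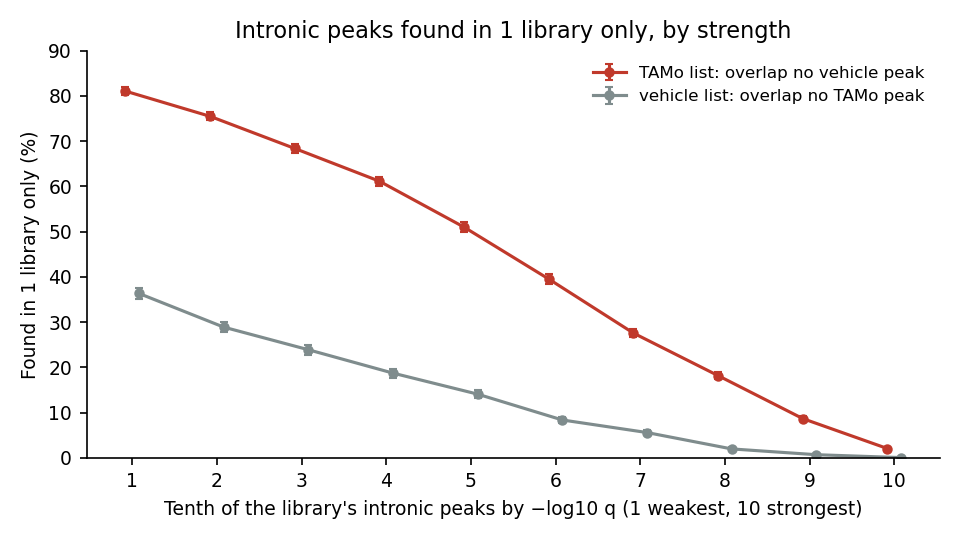
Percent of intronic peaks found in 1 library only (y axis) against the strength bin by −log10 q within each list (x axis, bin 1 weakest, bin 10 strongest), for the TAMo list and the vehicle list; bars are 95% Wilson intervals. The TAMo-only share ran down from 81.1% to 2.05% and lay above the vehicle-only share, 36.3% to 0.0505%, in every bin.

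The strongest members stood far above the rest. An intron of Scel, the gene of the epidermal envelope protein sciellin, held the member with the highest −log10 q among those with a whole coverage, at chr14:103606867-103607475 (intron 27 of 29, plus strand), with 846 reads (95% Poisson interval 789.9 to 905) over a local background of 24.2. The nearest vehicle peak lay 6665 bp away. Nat9, a predicted N-acetyltransferase gene, held 939 reads at chr11:115184840-115185309, on a high local background of 91.3 reads and 1864 bp from a vehicle peak. Impg2, which encodes a proteoglycan of the retinal matrix, held 706 reads at chr16:56264535-56265252, and the vehicle library had no peak within 88055 bp. Syne1, the gene of the nuclear envelope linker nesprin-1, had 598 reads and Tmtc2, the gene of an endoplasmic reticulum membrane protein, 602 reads, with vehicle peaks 31259 and 17327 bp away. Rb1, which encodes the retinoblastoma protein that restrains E2F factors and cell cycle entry, held 559 reads (513.6 to 607) in intron 2 of 26 at chr14:73313321-73313776. A second Rb1 member, at chr14:73313823-73314174, held 279 reads and began within 100 bp of the end of the first. Dip2b carried 2 of the 12 strongest members, with 591 and 454 reads in introns 2 and 1. The others among the 12 were Fam53b with 703 reads, 2310022A10Rik with 776 reads, Gnpat, a gene of plasmalogen synthesis, with 564 reads, and Slc5a11, a sodium and inositol cotransporter gene, with 493 reads.

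Along genes, the members lay somewhat deeper than shared peaks. Their median distance to the nearest protein-coding start site was 26554 bp, against 22173 bp for shared intronic peaks and 21538 bp for vehicle-only intronic peaks. A distance over 100 kb was found for 14.3% of members (14.0 to 14.7), against 10.9% of shared peaks (10.6 to 11.2) and 10.8% of vehicle-only peaks (10.2 to 11.5). The host was a protein-coding gene for 90.01% of members and 89.7% of shared peaks, and a lincRNA gene for 6.25% and 6.35% of them. Of 34195 members in protein-coding hosts, 33046 lay under a transcript of the host in the basic GENCODE M21 set. The rest lay only in the host's gene body and had no intron rank. Among those 33046 members, 28.5% (27.97 to 28.9) lay in the first intron. For shared and vehicle-only peaks, counted likewise, it was 30.6% (30.2 to 31.0) and 30.4%. The third or a later intron held 56.5% of members and 53.5% of shared peaks. The members' share of intronic TAMo peaks varied little by chromosome, between 40.6% on chromosome 11 and 45.6% on chromosome 18.

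Many members had open chromatin in vehicle nearby. The gap to the nearest vehicle peak had a median of 3864.5 bp (quartiles 1041 and 9611 bp), against 1141 bp from a vehicle-only peak to the nearest TAMo peak. These distances run to lists of unlike length, 127423 vehicle and 179414 TAMo intervals. The part of list length in their difference was not tested. A vehicle peak lay within 100 bp of 5.79% of members, within 500 bp of 16.9%, within 1 kb of 24.4% and within 10 kb of 76.0%. Just inside the overlap limit were 77 members with a vehicle peak 1 to 10 bp away, with a median of 39 reads, and just outside it 21 intronic TAMo peaks that shared 1 to 10 bp with vehicle, with a median of 35 reads. At the start-site limit, 180 members lay at most 100 bp beyond 1 kb and had a median of 89 reads, and 196 otherwise qualifying peaks at most 100 bp short of it had 93 reads.

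**Figure D3:**
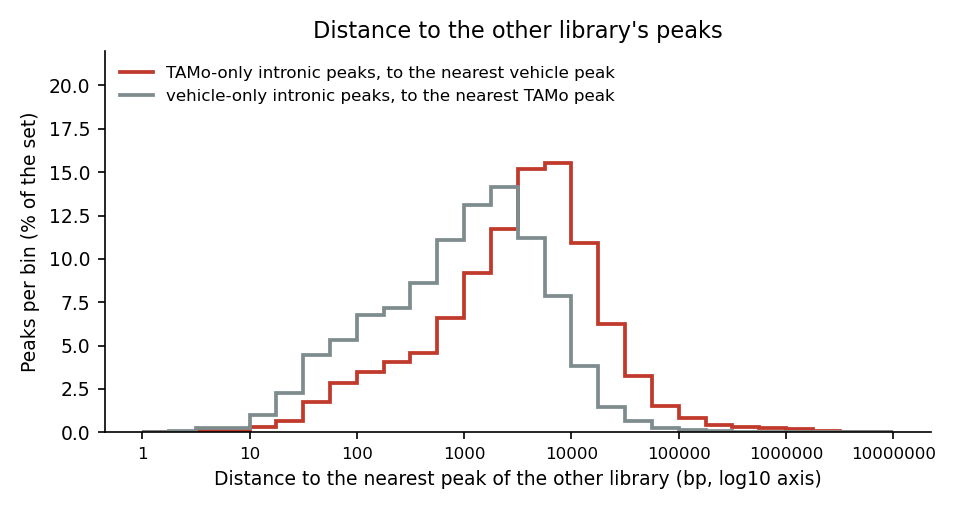
Distance in bp (log10 axis) from each TAMo-only intronic peak to the nearest vehicle peak, and from each vehicle-only intronic peak to the nearest TAMo peak, as the percent of each set per bin. TAMo-only peaks, with a median of 3864.5 bp, sit to the right of vehicle-only peaks, with a median of 1141 bp. The vehicle list that the former are measured to is shorter than the TAMo list.

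The members spread over 8805 of 20807 autosomal protein-coding genes, with a median of 2 per host. There were 3175 genes with 1 member, 2244 with at least 5 and 760 with at least 10, the last holding 12272 members. Hosts were long: their median gene length was 45.2 kb, against 17.6 kb for all protein-coding genes. No host length is given for shared or vehicle-only intronic peaks, so this length cannot be read as particular to the members. Here and below, the strongest or leading member of a gene is that of highest −log10 q, which need not hold the most reads. Pde4d, which encodes a cAMP-degrading phosphodiesterase, held 63 members beside 65 shared intronic peaks over 1504 kb, and its strongest member had 335 reads. Rora, the gene of a nuclear receptor used in several lymphocyte lineages, held 51 members and 52 shared peaks, with 232 reads at the strongest. Fars2, the mitochondrial phenylalanyl-tRNA synthetase gene, held 53 members and 43 shared peaks. The share was higher still in Sorcs2, a sortilin-family receptor gene, with 46 members and 24 shared peaks, in Zfhx3, a zinc-finger homeobox gene, with 44 and 26, and in Ttc28, with 47 and 30. Wwox, an oxidoreductase gene in a fragile region of the genome, held 47 members and 48 shared peaks, the strongest member with 340 reads and 20849 bp from a vehicle peak. The annotated gene Gm20388, whose body spans 4435 kb and runs across other genes, was the host of 155 members and 195 shared peaks, a share of 44.3%, near that of all intronic TAMo peaks.

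Other hosts were short and densely filled. Ackr2, the gene of an atypical chemokine receptor that scavenges chemokines, held 5 members in 12.7 kb with 2 shared peaks, and its strongest member had 113 reads. Adap2 held 7 members in 24.9 kb with 1 shared peak, 207 reads at the strongest, and open promoters in both libraries. Dguok, which encodes a mitochondrial deoxyguanosine kinase, held 7 members in 26.8 kb and Tra2b, a splicing factor gene, 6 in 21.5 kb, both without a shared intronic peak. Wnt9a, a Wnt ligand gene, held 7 members with 2 shared peaks and 176 reads at the strongest. Irx5, Mettl7a1 and Kcnh3 held 6, 7 and 5 members. In all, 1883 protein-coding genes had members and no shared intronic peak, and these held 3256 members. The reverse, shared intronic peaks and no member, was found in 2573 protein-coding genes.

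Members also sat next to each other. Runs of members no more than 1 kb apart took in 9548 members (25.1%) in 4390 runs, and 656 runs had at least 3. No such count is given for shared or vehicle-only peaks, so the 25.1% cannot be read as particular to the members. The runs named here were picked after their values were seen. One run of 5 lay in Scap, the gene of the protein that escorts SREBP factors in sterol sensing, at chr9:110349830-110352170, with 34 to 193 reads per member. A second lay in Stim1, whose product senses calcium in the endoplasmic reticulum and opens the calcium channel used after T cell receptor signalling, at chr7:102368583-102371646, with 50 to 195 reads. The Dguok run of 5, at chr6:83489000-83491868, had 42 to 106 reads, and that in Nck2, an adaptor gene of receptor signalling, 21 to 71 reads. Neighbouring members share a locus and are not independent regions.

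Of the 17 gene lists, 13 had a TAMo-only share below the 43.3% of all intronic TAMo peaks. Those of cytokine receptors and STAT signalling (59 of 245 intronic TAMo peaks, 24.1%, 95% Wilson interval 19.2 to 29.8), of NFAT, AP-1 and NF-kB factors (43 of 166, 25.9%, 19.8 to 33.1), of T cell receptor signalling (114 of 429, 26.6%, 22.6 to 30.9) and of naive, memory and stem factors (120 of 444, 27.0%, 23.1 to 31.3) had the lowest shares apart from housekeeping genes (3 of 20). Inhibitory receptors and exhaustion factors followed with 60 of 193 (31.1%, 24.98 to 37.9), adhesion and chemokine receptors with 59 of 175 (33.7%), effector factors and molecules with 88 of 249 (35.3%) and cell cycle genes with 52 of 147 (35.4%). Interferon-stimulated genes (25 of 65) and apoptosis and p53 genes (60 of 156) both stood at 38.5%, chromatin and DNA methylation enzymes at 41.3% (201 of 487) and glycolysis and hypoxia genes at 41.9% (65 of 155). The order of the lowest lists depended on the peaks admitted: the inhibitory receptor and exhaustion list stood at 17.3% with a −log10 q of at least 10 and at 14.9% with lists of equal length, below the T cell receptor list in both (18.4% and 15.5%). The lists were chosen with earlier results of these data known, so a share says how many of a list's open intronic sites were new to the TAMo list and is no test. Peak strength differed along with the share: members had a median of 61 reads and shared peaks 203 in the T cell receptor list, against 40 and 128 over all hosts, and the part of strength in the shares was not tested.

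**Figure D4:**
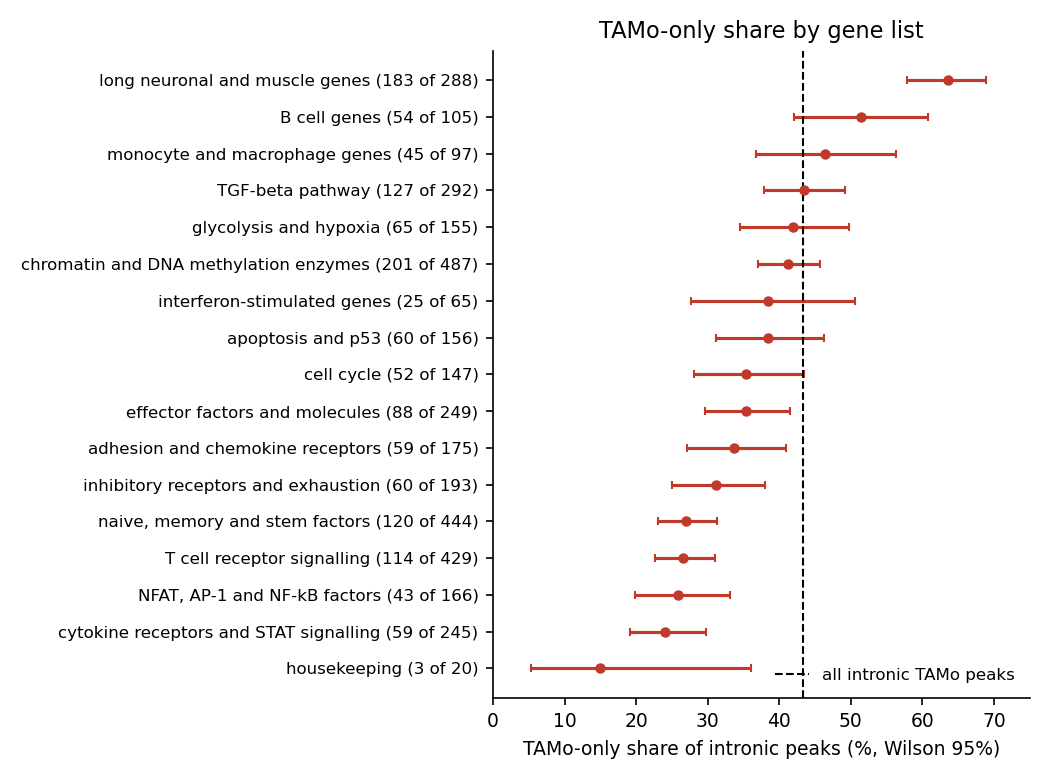
TAMo-only percent of intronic TAMo peaks (x axis) for each of 17 gene lists (rows, with members of all intronic peaks in brackets); points are shares, bars are 95% Wilson intervals and the dashed line is the share over all intronic TAMo peaks, 43.3%. The points of 13 lists lie left of the line, from housekeeping genes (3 of 20) to glycolysis and hypoxia genes (41.9%); 4 lie right of it, from the TGF-beta pathway (43.5%) to long neuronal and muscle genes (63.5%).

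Single T cell genes gave the counts behind these shares. Bach2, which encodes a repressor that holds CD8+ T cells in a stem-like state, held 28 members beside 88 shared peaks and 14 vehicle-only peaks; its strongest member, at chr4:32289848-32290345, had 330 reads and lay 482 bp from a vehicle peak. Tox, a factor central to T cell exhaustion, held 21 members, 42 shared and 12 vehicle-only peaks. Its member of highest −log10 q had 81 reads at chr4:6694811-6695381, and another held 177 reads on a higher local background of 59.04. Its relative Tox2 held 12 members, 11 shared peaks and 0 vehicle-only peaks, and its strongest member by −log10 q had 41 reads. Tcf7, encoding TCF-1 of naive and stem-like T cells, held 4 members, 10 shared and 1 vehicle-only peak, and Lef1, its close relative, 7, 26 and 3. The leading member had 195 reads in Tcf7 and 136 reads in Lef1. Foxp1, a quiescence factor gene, held 20 members against 58 shared and 12 vehicle-only peaks, and Ets1 10 against 31 and 4. Among the Runx genes, Runx1 held 17 members, 29 shared and 2 vehicle-only peaks, Runx2 23, 43 and 6, and Runx3, which drives the cytotoxic programme, 4, 12 and 1. The leading Runx3 member, at chr4:135159765-135160018, had 350 reads on a local background of 89.7 and a vehicle peak 206 bp away.

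Prdm1, the gene of the terminal differentiation factor Blimp-1, held 8 members, 6 shared peaks and 0 vehicle-only peaks, with 225 reads at chr10:44462501-44462751 and 112 reads at chr10:44473629-44473999, the nearest vehicle peaks 3375 and 8972 bp away. Both summits lay in the Prdm1 gene body, but no Prdm1 transcript of the basic GENCODE M21 set spanned them, so they had no intron rank. Zeb2, another effector factor gene, held 7 members, 7 shared and 6 vehicle-only peaks, with 169 reads at the strongest. Ikzf1, the Ikaros gene, held 0 members beside 27 shared and 2 vehicle-only peaks. Havcr2, the gene of the inhibitory receptor TIM-3, likewise held 0 members beside 5 shared and 2 vehicle-only peaks. Ctla4 held 1 member of 52 reads with 9 shared peaks, and Pdcd1, the gene of PD-1, chosen after its value was seen, 1 member of 106 reads with 3 shared peaks. The Ctla4 member also lay under no transcript of its gene in the basic set. The costimulatory gene Cd28 held 3 members and 11 shared peaks, with 236 reads at the strongest, 90 bp from a vehicle peak.

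**Figure D5:**
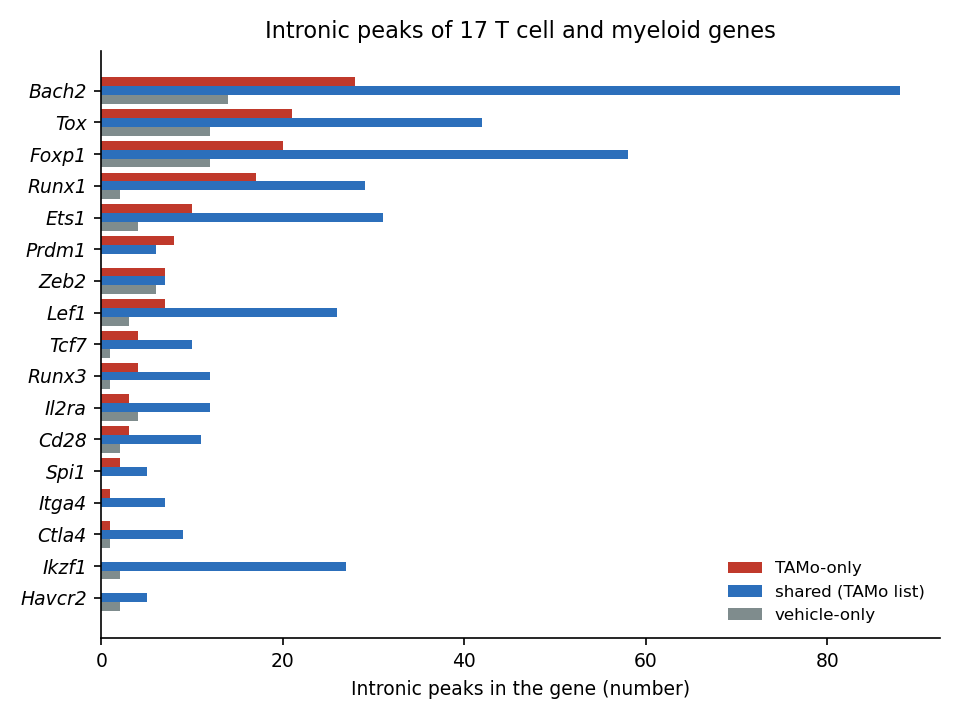
Number of intronic peaks (x axis) in 17 T cell and myeloid genes (rows), as bars for TAMo-only peaks, peaks of the TAMo list shared with vehicle and vehicle-only peaks. Shared peaks are the longest bar in most genes, as in Bach2 (28, 88 and 14); Prdm1 has more TAMo-only peaks (8) than shared ones (6), and Ikzf1 and Havcr2 have 0 TAMo-only peaks.

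Signalling and adhesion genes differed in how many members lay beside their shared peaks. Il2ra, the gene of the high-affinity IL-2 receptor chain, held 3 members, 12 shared and 4 vehicle-only peaks, and the strongest member, at chr2:11647283-11647496 in intron 1, had 467 reads over a local background of 132.6. Jak1 held 12 members and 32 shared peaks, with 87 reads at the member of highest −log10 q, and Stat3 5 and 9, with 133 reads. Of the T cell receptor pathway, Cblb, a ubiquitin ligase that restrains activation, held 14 members and 32 shared peaks, with 258 reads at the strongest, and Vav3, a guanine nucleotide exchange factor, 13 and 17, with 150 reads. Nfatc2 held 9 members and 22 shared peaks, with 178 reads at chr2:168522369-168522761. Atf3, the gene of a stress-induced factor that dimerises with AP-1 proteins, held 9 members beside 7 shared peaks, and its strongest had 437 reads on a local background of 168.0. Of the integrin genes, Itga2 held 10 members and 11 shared peaks, Itgav 7 and 7, and Itga4 1 and 7.

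The TGF-beta pathway was the T cell-related list with the highest share, 127 of 292 intronic peaks or 43.5% (37.9 to 49.2), beside 43.3% over all intronic TAMo peaks; the difference from the share over all intronic peaks was -1.10 percentage points among peaks with a −log10 q of at least 10 and -0.67 points in a TAMo list as long as the vehicle list. Among receptors, Tgfbr3, the co-receptor betaglycan, held 25 members, 20 shared and 0 vehicle-only peaks, with 142 reads at the strongest, while the signalling receptor gene Tgfbr2 held 4 members and 19 shared peaks. Among signal transducers and inhibitors, Smad3 held 13 members and 20 shared peaks, the inhibitory Smad6 6 and 4 with 374 reads at the strongest, and the ubiquitin ligase gene Smurf2 11 and 3. Ldlrad4, an inhibitor of the pathway, held 31 members and 34 shared peaks. Tgfbr2, Smad3, Smad6 and Smurf2 were picked after their values were seen. In the interferon-stimulated list, Irf2 held 9 members and 12 shared peaks, with 130 reads at the strongest, and Usp18, which dampens interferon receptor signalling, 2 and 2, with 158 reads. Isg20, an exonuclease gene picked after its value was seen, held 1 member of 479 reads and no shared intronic peak.

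Growth, survival and metabolism genes held members too. Of cell cycle genes, Cdk6, the kinase of early G1, held 10 members and 31 shared peaks, with 141 reads at the strongest, and Rb1 9 and 12. Of survival genes, Bcl2 held 15 members and 30 shared peaks, with 294 reads, and Mdm4, a p53 inhibitor, 10 and 4, with 344 reads. Epas1, the HIF-2 alpha gene, held 12 members, 8 shared and 0 vehicle-only peaks, with 106 reads, and Pfkp, a phosphofructokinase gene of glycolysis, 8, 14 and 2, with 382 reads. Of chromatin genes, Hdac9 held 37 members and 20 shared peaks with no promoter peak in either library, and Arid1b, a SWI/SNF subunit gene, 25 and 47, with 606 reads at chr17:5251926-5252642. Of housekeeping genes, Ywhaz held 2 members and Polr2a 1.

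Lists of genes from other tissues and cell types had shares of 46.4% to 63.5%. Long neuronal and muscle genes held 183 members of 288 intronic TAMo peaks (63.5%, 57.8 to 68.9), with a median of 28 reads at the members. Csmd3, a very long gene expressed in brain, held 24 members and 0 shared or vehicle-only intronic peaks over 1211 kb, the strongest with 66 reads, and the synaptic scaffold gene Magi2 22 members and 14 shared peaks. B cell genes held 54 of 105 (51.4%, 42.0 to 60.8): Bank1 12 members and 5 shared peaks, and Pax5, a factor of B cell identity, 11 and 7, with 109 reads at chr4:44630080-44630423. Ebf1 of the same list, picked after its value was seen, went the other way, with 7 members and 21 shared peaks (25%). Monocyte and macrophage genes held 45 of 97 (46.4%, 36.8 to 56.3). The monocyte and macrophage list differed from all intronic peaks by -2.64 percentage points with a −log10 q of at least 10 and by -4.12 points with lists of equal length, so its direction turned in both. The B cell list differed by 7.53 points with a −log10 q of at least 10 and by -0.28 points with lists of equal length, where its direction turned. Mertk, an efferocytosis receptor gene, held 9 members and 5 shared peaks, with 111 reads at the strongest and the nearest vehicle peak 11716 bp from it. Itgam, encoding CD11b, a surface marker used to isolate TAMos, held 7 members and 8 shared peaks, with 38 reads at the strongest. Spi1, the gene of the myeloid factor PU.1, held 2 members and 5 shared peaks, with 28 reads at the one of higher −log10 q.

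Promoter peaks of cell type markers were checked in both libraries. All 9 CD8 T cell markers had a promoter peak in both libraries, with summed summit coverages of 5984 reads in TAMo and 4885 in vehicle, or 1032 and 1037 times the library background. Of 11 monocyte or macrophage markers, 8 had a promoter peak in TAMo and 4 in vehicle, summing to 1205 reads (range 27 to 411) and 429 reads (25 to 237), or 208 and 91.1 times the background. Csf1r, Itgam, Adgre1 and Fcgr3 had one in TAMo and none in vehicle, and Ly6c2, Lyz2 and Ccr2 had none in either library. The others had one in both, higher in TAMo reads: Cd14 with 411 and 141, Cebpa 316 and 237, Cx3cr1 145 and 26, and Spi1 57 and 25. The 11 markers held 19 members among 46 intronic TAMo peaks, a share near the 43.3% over all intronic TAMo peaks. Of 5 B cell markers, 3 had a promoter peak in TAMo and 2 in vehicle, summing to 396 and 352 reads, or 68.3 and 74.7 times the background. Most of these reads were at Ebf1, with 301 in TAMo and 326 in vehicle, and Cd79a had no promoter peak in either. No neutrophil marker had one, 1 of 2 NK cell markers had one in both, and of 3 erythroid markers 1 had one in TAMo and 2 in vehicle. The part of monocyte chromatin, or of other cells left in the sort, in the members was not tested.

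Shares also differed by the state of the host's own promoter. Genes with a promoter peak in both libraries held 29491 members, 42.5% of their intronic TAMo peaks (42.1 to 42.9). The share was 53.7% (51.4 to 56.0) where the promoter peak was in TAMo only, 48.1% (43.8 to 52.5) where it was in vehicle only and 49.1% (47.9 to 50.2) where neither library had one. Members in genes with no promoter peak numbered 3463. Shared intronic peaks of the same hosts were higher in TAMo where members were many: the median log2 ratio of summit coverage, TAMo over vehicle at vehicle depth, was 0.50 in genes with over 10 members, 0.41 with 6 to 10, 0.42 with 3 to 5, 0.31 with 1 or 2 and 0.22 in genes with shared peaks and 0 members, beside 0.38 over all shared intronic regions. Gene by gene this median was 1.89 in Mdm4, 1.08 in Tgfbr3, 0.78 in Runx1 and -0.39 in Tox. Both counts come from the same 2 libraries, and these ratios have no replicate error. Median gene length rose with the number of members, from 17.8 kb with 0 members to 227 kb with over 10. The length with 0 members is over 2844 genes, which include hosts of vehicle-only peaks alone. The part of gene length in the ratios was not tested.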

How the data were processed

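Per the submitters' processing notes, reads were processed with Trimmomatic 0.36, Bowtie2 and MACS2 on the build mm10 (settings not given in the sources used here include read shifting and duplicate removal). The authors deposited 1 peak list per library, not pooled, whose deposited rows give, by their values, the summit's fold enrichment over local background, −log10 values of its Poisson p and adjusted q, and a score that repeats the −log10 q in whole steps. The −log10 q served to rank and filter peaks within a list.

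Rows with the same interval were counted as 1 peak, using the summit of highest −log10 q. Overlap meant 1 shared base pair. Genes, exons and start sites came from GENCODE M21 (basic set), chromosomes 1 to 19, and the host was the shortest protein-coding gene body over the summit, otherwise the shortest other gene. Summit coverage was recovered from the fold, (reads + 1)/(background + 1), and the Poisson p, with whole reads accepted within 1% of a step; this was tested on simulated data, and 3 members gave no whole value. Coverage at vehicle depth is reads divided by 1.23, the ratio of the library backgrounds. Shares carry 95% Wilson intervals and single coverages exact Poisson intervals.

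Members and gene lists (403 of 408 genes found) were chosen with earlier results of these data known. Genes named were hosts of the 12 strongest members, the 8 hosts with most members, the 8 with most per kb among hosts of at least 5, the 2 hosts with most members in each list, and 17 T cell and myeloid genes; exceptions are stated. RefSeq windows gave sequence, and searches around summits elsewhere were not run for want of a genome. The sources do not say whether cultures were repeated. Calculations used Python 3.11.15, numpy 2.4.6, pandas 2.3.3 and scipy 1.17.1, and plots matplotlib 3.10.9.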

Additional observations from a re-analysis of the deposited data

How the results depend on the processing

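The number of members depended on how weak a peak was admitted. It was 23141 when only TAMo peaks with a −log10 q of at least 10 were used and 17986 when both lists were held to equal length. The TAMo-only share of intronic TAMo peaks was then 33.7% and 29.5%. The vehicle-only share was 7.47% of the 42633 intronic vehicle peaks that themselves had a −log10 q of at least 10. It was 24.3% of all 59372 intronic vehicle peaks beside the shortened TAMo list. Counting a vehicle peak within 500 bp as shared gave 36.0% for TAMo and 9.14% for vehicle, and calling a peak shared only when the other list covered 50% of it gave 47.4% and 15.1%. With the comprehensive gene annotation, chosen after seeing the data, the TAMo-only share was 43.8%. A distance of 2.5 kb from start sites, protein-coding genes alone, and a depth-scaled p at least as strong as the vehicle list's weakest, also added later, gave 36078, 34615 and 37888 members. The TAMo-only share stayed above the vehicle-only share in each alternative that gave both. Of the 17 list shares, 12 moved outside their interval at the stricter q and 16 with lists of equal length. The cause of these shifts, beyond the removal of weak peaks that the first 2 alternatives make by construction, was not tested. Scaling on shared intronic regions lowered the share of members above the vehicle intronic median to 16.5%, against 24.4%. Motif windows centred on summits, of 2 widths and with coverage-drawn shared peaks, were not run. No paired analysis was possible because each group has 1 library. With 1 library per group, no difference has a replicate error, and counting error limits regions near 14 reads.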

Other observations

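A few members lay on annotated small RNA genes. Among the RefSeq miRNA hairpins, 7 were overlapped by a member. The strongest was at Mir6407 in Xpnpep1, where a member at chr19:53010411-53010882 held 559 reads at its summit and covered the whole hairpin. Mir7689 in Sorcs2, Mir5110 in Bcas3 and Mir3971 in Slc43a2 were overlapped by members with 63, 68 and 72 reads.

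For 3 members, in Eif4a3, Dip2c and Ldlrad4, no whole summit coverage was recovered. The members in Eif4a3, at chr11:119291652-119291839, and in Dip2c, at chr13:9296953-9297140, were both 188 bp wide and had the same deposited fold, 4.16, and the same −log10 q, 873, on different chromosomes. The member in Ldlrad4 had a fold of 6.11 and a −log10 q of 583.

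In the cytokine receptor list, picked after their values were seen, Cish, a feedback inhibitor gene of cytokine signalling, held 2 members and no shared intronic peak, with 370 reads at the strongest. Stat5a held 4 members and 1 shared peak, with 217 reads, and Stat4 2 members and 29 shared peaks. Of monocyte genes, Csf1r held 4 members and 2 shared peaks, with 145 reads at the strongest.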
